A study of Rattus norvegicus with 30 samples.

Results

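The 10 arrays described here are the vehicle cultures of a 30-array study of primary rat hepatocytes: 5 cultures sampled at 48 h and 5 sampled at 24 h, taken by the time and vehicle given in their titles. The comparison asks how RNA levels moved over a further day in culture without test compound. Per the labels, the cells were purchased frozen from male Sprague Dawley rats. They were plated on collagen beneath a Matrigel layer, and dosing was on culture day 3. The vehicle groups received 1% DMSO and no dioctyl phthalate, and were harvested 24 or 48 h after dosing. The other 20 arrays are cultures given 250 or 1000 µM dioctyl phthalate, a phthalate plasticizer, in the same vehicle, with 5 cultures at each dose and time. Each culture was 1 well with its own array. The sources used here do not give the ages of the rats or the number of animals or vials, so every error below describes the spread between wells, which may be technical. RNA was measured on an Affymetrix rat array, and a level here is the log2 of the deposited signal after adding 1. Of the 14217 genes with a probe set of a single symbol, 10528 passed a filter on low signals (log2 7.88, a signal of 234) and were tested.

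Hepatocytes make most plasma proteins and carry the liver's enzymes of drug, steroid, lipid and nitrogen metabolism. Once isolated and plated, they are known to lose part of this programme, the cytochrome P450 enzymes above all, while genes of the cytoskeleton, adhesion and matrix come up. A Matrigel overlay and glucocorticoid in the medium slow that drift. A change with time in vehicle is also the baseline against which any compound given to such cultures is read.

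The libraries at 48 h were not alike. Affymetrix arrays read control transcripts near their 3' and 5' ends, and the ratio of these signals rises when RNA or its labelled copies are short. The beta-actin 3'/5' log2 ratio was 1.04, 1.27, 1.18, 1.11 and 1.12 on the 24 h arrays, in replicate order, and 2.44, 1.74, 1.70, 1.04 and 1.66 on the 48 h arrays. Replicates 1, 2, 3 and 5 at 48 h lay above every 24 h array, and replicate 4 lay among them. The means were 1.14 ± 0.084 at 24 h and 1.72 ± 0.494 at 48 h (SD, n = 5, exact two-sided permutation p = 0.0397, adjusted p = 0.0794 over 4 measures; 5 against 5 arrays allow 0.00794 at the least). The Gapdh ratio was 0.147 ± 0.0216 and 0.219 ± 0.0545 (SD, n = 5, same exact p), with replicate 4 again among the 24 h arrays. The hexokinase ratio moved the other way, -0.855 ± 0.865 and -1.50 ± 0.879 (SD, n = 5, exact permutation p = 0.254). Its 3' and 5' probe sets had means under the low-signal limit at both times. On the actin transcript itself the 5' probe set was lower at 48 h (14.56 ± 0.122 at 24 h and 13.99 ± 0.523 at 48 h, SD, n = 5) and the 3' probe set differed little (15.70 ± 0.112 and 15.71 ± 0.0741). The 4 spiked bacterial RNAs with control probe sets had overlapping ranges at both times, with means of 2.30 and 2.45 for dap and 0.976 and 0.959 for lys. The 20 arrays of exposed cultures had actin ratios of 0.977 to 1.51. Across all tested genes, replicate 4 at 48 h also lay nearer the 24 h mean (root mean square distance 0.322 on the log2 scale) than the mean of the other 48 h arrays (0.372). The other 48 h arrays lay 0.384 to 0.472 from the 24 h mean and 0.259 to 0.338 from the mean of the other 48 h arrays, replicate 4 included. Results below are set beside the counts with the actin ratio as a covariate, beside replicate 4 for the genes described array by array, and beside the same time step in exposed cultures, which share no array with the vehicle cultures. The part of the raised ratio in each result was not tested beyond these values.

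**Figure D1:**
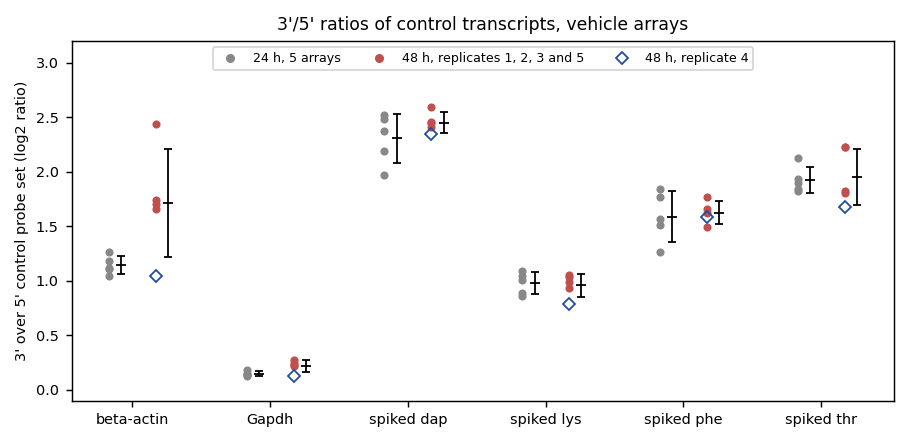
Log2 3'/5' ratio of control probe sets (vertical axis) for beta-actin, Gapdh and 4 spiked bacterial RNAs on each vehicle array, with bars for the mean and SD of 5 arrays. Replicates 1, 2, 3 and 5 at 48 h have actin ratios of 1.66 to 2.44, above the 24 h range of 1.04 to 1.27, while replicate 4 is at 1.04 and the spiked RNAs overlap between times.

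Between 24 and 48 h in vehicle, limma called 2963 genes (28.1% of those tested), of which 1731 were higher at 48 h (16.4%) and 1232 lower (11.7%). Most of these changes were small: the median size was 0.36 on the log2 scale, and 79 genes (0.75%) moved by 2-fold or more. The split between directions depended on the scaling: with array medians set equal 2161 genes were called, 78.3% of them higher at 48 h, against 58.4% on the deposited scale. Where a list had more than 4 falls and setting medians equal cut their number by over 1.5 times, both numbers are given below. Rises and falls in each list are to be read against the 16.4% and 11.7% of all tested genes. The 5 arrays at 48 h lay wholly to one side of the 5 at 24 h for 1045 called genes (9.93% of tested genes). With the actin ratio as a covariate 749 genes were called (7.11%), with 3.72% of tested genes higher and 3.39% lower, and 704 of the 2963 (23.8%) kept their call and direction. Compared alone with the 24 h arrays, replicate 4 gave 146 calls (1.39%), while replicates 1, 2, 3 and 5, each taken alone as an alternative added after seeing the data, gave 2217, 1158, 1542 and 1080. In these single-array fits the lone array is assumed to vary like the other groups. Replicate 4 lay on the same side of the 24 h mean as the whole group for 2480 of the 2963 genes (83.7%), but with smaller steps. Among the genes higher at 48 h its median change was 0.158 against 0.451 for the other 4 arrays, and among those lower it was -0.147 against -0.367. Larger changes kept their call more often. Of the 79 genes that moved 2-fold or more, 41 were called with the covariate and 37 at both doses in the same direction, against 17.7% and 18.6% of the genes that moved by less than 0.5. Of the called genes, 970 had another probe set that passed the filter, of which 214 had another probe set called in the same direction and 161 (16.6%) had one called in the opposite direction.

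**Figure D2:**
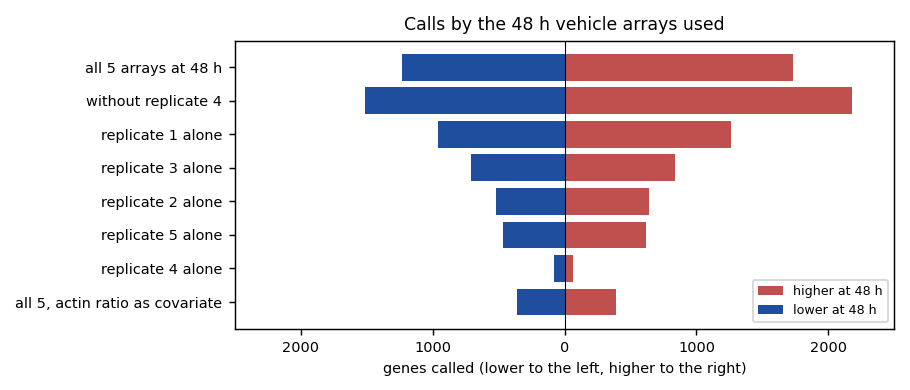
Number of genes called at an adjusted p under 0.05 (horizontal axis), higher at 48 h to the right and lower to the left, for the whole 48 h group and for parts of it. The whole group gives 1731 and 1232, any of replicates 1, 2, 3 and 5 alone gives 1080 to 2217 in all, and replicate 4 alone gives 146.

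The 12 largest falls and 12 largest rises were taken among called genes whose vehicle groups did not overlap. By that choice replicate 4 lay beyond all 24 h arrays in each of them, so this is no check on the actin ratio. Larger changes in which replicate 4 overlapped the 24 h arrays were left out. The largest of these falls were in secreted proteins and in P450 enzymes, and in most of them replicate 4 lay with the other 48 h arrays. Serpina6, the corticosteroid-binding globulin of plasma, read 11.24, 11.30, 11.72, 11.11 and 11.51 at 24 h and 8.68, 8.93, 8.93, 8.85 and 8.88 at 48 h. The groups were far apart and replicate 4 sat in the middle of its own. The log2 change was -2.52 ± 0.113 (SE, 5 arrays per group, adjusted p = 9.81e-18), a level 5.75-fold lower, and it was -2.24 and -2.43 over the same day at 250 and 1000 µM. In such bulk samples, fewer cells of a type and less RNA per cell cannot be told apart. The serpins Serpina3c and Serpina3l fell by 2.43 and 1.53 on the log2 scale, with changes at the doses of -2.34 and -2.47 for the first and -1.52 and -1.55 for the second. Spink1l, a Kazal-type protease inhibitor by name, fell from levels of 13.06 to 13.23 to levels of 11.42 to 11.79, and Rup2, a urinary protein, from 15.92 to 16.15 down to 14.35 to 14.63. Neither overlapped between times, and both had changes of -1.39 to -1.70 at the doses.

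A further 5 genes complete the 12 deepest falls. Il1rn, the secreted antagonist of the interleukin-1 receptor, went from 9.49 to 10.27 at 24 h to 6.37 to 8.49 at 48 h; some 48 h arrays were under the low-signal limit, and with these counted at the limit the level was at least 3.45-fold lower. Gstp3, a pi-class glutathione S-transferase, was at least 2.2-fold lower by the same reading, with replicate 3 at 8.07 and the other 48 h arrays at 6.39 to 6.78. Fabp4, a fatty acid-binding protein best known from fat cells and macrophages, fell by 1.84 ± 0.152 (log2, SE), from 9.86 to 10.84 down to 8.38 to 8.92. C1qc, a chain of complement C1q made mainly by macrophages, was at least 2.06-fold lower, and Drp2, a dystrophin-related protein, at least 2.12-fold. For these last 2 genes the adjusted p was 0.147 and 0.111 with the actin covariate, and neither was called at either dose, unlike Il1rn, Gstp3 and Fabp4, which were called in all of these. C1qc had an adjusted p of 0.0897 without 48 h replicate 3 and 0.0558 without 48 h replicate 5, and Drp2 one of 0.0513 without 48 h replicate 3.

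Among the drug- and steroid-metabolising P450 enzymes, calls were all falls. Of 28 tested members, limma called 14 lower and 0 higher (15 and 1 at an unadjusted p under 0.05; median log2 change -0.19, against 0.016 over all tested genes), and 9 of the falls had groups that did not overlap. With the covariate 10 fell, with medians set equal 9 fell, and 11 fell both here and at both doses. Over all 10528 tested genes, 287 fell and 320 rose both here and at both doses. The median change was -0.20 in replicate 4 alone and -0.20 in the other 4 arrays. Cyp3a2, a male-predominant testosterone hydroxylase of rat liver, read 12.52, 12.59, 12.87, 12.58 and 12.46 at 24 h and 10.47, 10.61, 10.26, 10.34 and 10.82 at 48 h, with no overlap. Its log2 change was -2.11 ± 0.0862 (SE, adjusted p = 1.44e-18), 4.3-fold lower. Cyp2c13, another male-specific rat enzyme, read 12.62, 12.68, 12.81, 12.71 and 12.49 and then 10.78, 10.86, 10.89, 10.86 and 10.98, a fall of 1.79 ± 0.0755 (log2, SE, adjusted p = 2.18e-18). For this gene the 48 h arrays lay close together, whatever their actin ratio.

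Falls in the group also took in enzymes that answer to other inducers. The 4 described next were picked after their values were seen. Cyp1a2, which oxidises caffeine and aromatic amines and is driven by the aryl hydrocarbon receptor, went from 13.33 to 14.04 at 24 h to 12.29 to 12.42 at 48 h (log2 change -1.46 ± 0.0789, SE). Cyp2e1, the ethanol-oxidising enzyme, fell by 0.79 ± 0.103, Cyp2c7 by 1.07 ± 0.0957 and Cyp3a9 by 1.28 ± 0.122. All 4 also fell at both doses, by 1.10 to 1.82. The falls were uneven. Cyp2c11, the main male-specific P450 of adult rat liver, fell by 0.26 ± 0.0881 (adjusted p = 0.0236, 0.164 with the covariate, and 0.0756, 0.103 and 0.0823 without 24 h replicate 4, 24 h replicate 5 or 48 h replicate 3). Cyp3a23-3a1, the pregnane-inducible family member, gave -0.08 ± 0.0752 (adjusted p = 0.488). Closely related P450 genes can share probe sequence, which was not tested.

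Cyp3a2 and Cyp3a23-3a1 both lie on chromosome 12, and only the first of them was called. The 250 bases before their start sites are shown with those of Cyp2c13, from RefSeq (build GRCr8, minus strand), with matches to CAAAGTNCA in capitals. That motif is close to the site bound by HNF4A, the nuclear receptor that holds up many hepatocyte genes. It lies 97, 110 and 127 bases before the start.
Cyp3a2 (chr12:14343858-14344107): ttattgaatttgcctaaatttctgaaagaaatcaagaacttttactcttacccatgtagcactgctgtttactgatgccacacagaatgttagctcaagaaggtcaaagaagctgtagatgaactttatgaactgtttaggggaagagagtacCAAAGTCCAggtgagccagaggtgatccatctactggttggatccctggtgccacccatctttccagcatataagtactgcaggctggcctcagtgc
Cyp3a23-3a1 (chr12:14398804-14399053): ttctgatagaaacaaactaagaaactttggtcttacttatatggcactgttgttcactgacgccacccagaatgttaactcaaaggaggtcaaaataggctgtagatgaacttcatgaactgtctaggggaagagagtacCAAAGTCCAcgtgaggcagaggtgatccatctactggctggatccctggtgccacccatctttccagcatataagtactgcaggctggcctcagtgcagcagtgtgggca
Cyp2c13 (chr1:248787189-248787438): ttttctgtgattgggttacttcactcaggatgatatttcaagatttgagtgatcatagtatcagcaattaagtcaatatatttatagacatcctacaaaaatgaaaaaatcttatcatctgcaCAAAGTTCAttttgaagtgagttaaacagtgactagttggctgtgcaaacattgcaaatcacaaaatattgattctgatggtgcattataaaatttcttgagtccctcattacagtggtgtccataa
The motif, searched on both strands, was in 1.06% of all 33469 promoter windows of this length and in 5 of the 24 listed P450 genes that had one. Of the genes that fell, 4 of 13 held it, and of the others 1 of 11. Hnf4a itself read 13.03 to 13.29 at 24 h and 13.68, 13.40, 13.33, 12.82 and 13.40 at 48 h, with replicate 4 below all the others, and was not called (log2 change 0.19 ± 0.0994, adjusted p = 0.159). Without replicate 4 it rose by 0.32 (adjusted p = 0.003), but replicate 4 alone gave -0.32. With the covariate the change was -0.17 (adjusted p = 0.204). The 2 other Hnf4a probe sets that passed the filter moved in the opposite direction to this one, and neither was called. A match is a description of the letters, and binding was not measured.

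The largest rise was that of Scd2, a stearoyl-CoA desaturase that makes monounsaturated fatty acids. It read 8.98, 9.02, 8.76, 9.20 and 8.93 at 24 h and 11.42, 11.60, 11.75, 11.33 and 11.52 at 48 h, with replicate 4 close behind the others and no overlap. The level was 5.83-fold higher (log2 change 2.54 ± 0.111, SE, adjusted p = 4.5e-18), and the change was 2.58 and 2.81 at 250 and 1000 µM. Another Scd2 probe set that passed the filter moved the same way but was not called. Acta1, the skeletal muscle form of actin, went from 11.61 to 12.67 up to 13.22 to 13.35, with replicate 4 above the rest at 13.76 (log2 change 1.36 ± 0.147, and 1.66 at 1000 µM). Here the array with the lowest actin ratio showed the most.

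Ucp2, an uncoupling carrier of the inner mitochondrial membrane, was lowest at 48 h in replicate 4. It read 5.67, 6.22, 6.03, 7.12 and 5.20 at 24 h, all under the low-signal limit, and 8.65, 8.11, 7.88, 7.19 and 9.12 at 48 h. Replicate 4 was barely above the highest 24 h array. The fitted log2 change was 2.14 ± 0.296, and as a bound the level was at least 1.24-fold higher. At 250 µM both times were above the limit, with means of 9.69 and 10.06, and the change was 0.37 (adjusted p = 0.49). The bound in vehicle is no larger than that change, so no difference between them is read here. Ehhadh, the peroxisomal bifunctional enzyme of fatty acid oxidation, read 9.98, 10.17, 10.36, 10.46 and 10.29 and then 12.13, 11.62, 11.16, 10.74 and 11.71. Its change of 1.22 ± 0.139 came down to 0.74 with the covariate and was 0.91 at both doses.

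Matrix and adhesion genes were among the other large rises. Tgfb2, a transforming growth factor, went from 7.28 to 9.49 up to 10.32 to 10.66, and Lamb3, a chain of laminin of epithelial basement membranes, from 9.28 to 9.57 up to 10.51 to 11.37, with replicate 4 lowest. Their log2 changes were 1.68 ± 0.241 and 1.61 ± 0.146, and both also rose at both doses (0.76 and 0.96 for Tgfb2, 0.56 and 0.80 for Lamb3). The lowest 24 h array of Tgfb2 was under the low-signal limit. Another Tgfb2 probe set moved the same way but was not called. Gtf3c1, a subunit of the polymerase III factor TFIIIC, Plekha5, Gprasp2, Tsx, Susd3 and Miga1, a mitochondrial outer membrane protein, rose by 1.29 to 1.74 with wide spread between arrays. Gtf3c1, for one, ran from 5.77 to 8.94 at 24 h. Some 24 h arrays of Gtf3c1, Plekha5, Gprasp2 and Miga1 were under the low-signal limit of 7.88, with lowest levels of 5.77, 7.09, 6.98 and 6.49. The sizes of these rises rest in part on such arrays. Of the 6 genes that rose by 1.29 to 1.74, Gprasp2, Tsx and Susd3 were called at both doses too, and Gtf3c1, Plekha5 and Miga1 at neither. With the covariate Susd3, Gtf3c1 and Miga1 were not called (adjusted p = 0.127, 0.149 and 0.21).

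**Figure D3:**
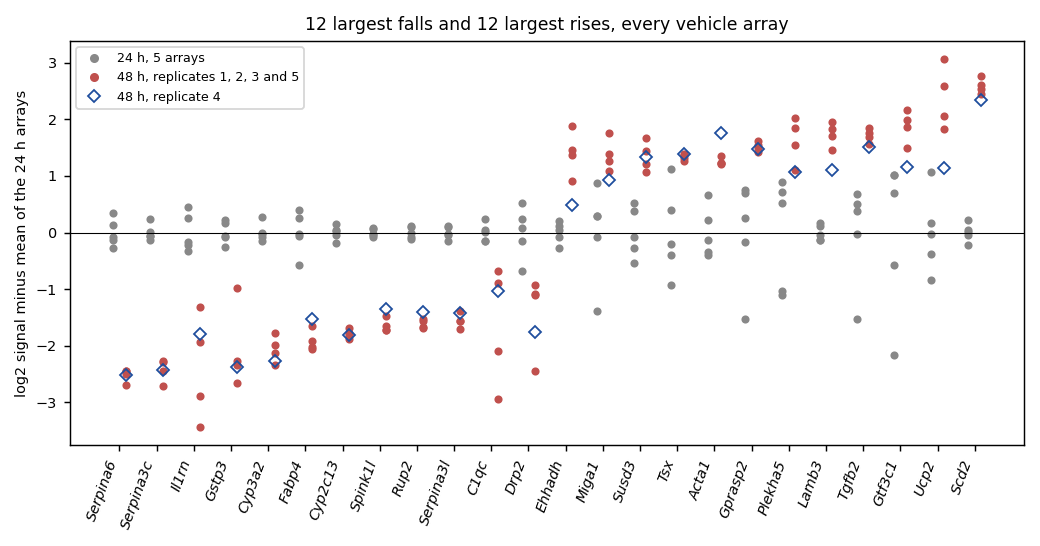
Log2 signal minus the mean of the 24 h arrays (vertical axis) for the 12 largest falls and 12 largest rises in vehicle, 1 point per array. The genes were taken among those whose groups do not overlap, so replicate 4 lies beyond the 24 h arrays in all of them by that choice. Replicate 4 at 48 h lies with its group for Serpina6, Cyp2c13 and Scd2, and at the edge nearest the 24 h arrays for Ehhadh, Lamb3 and Ucp2.

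Most tested genes of cholesterol synthesis rose. Of 20 tested members, 13 rose and 1 fell (median 0.31), 9 rose with the covariate and 11 rose here and at both doses. Replicate 4 alone had a median of 0.25. Sqle, squalene epoxidase, read 12.81 to 13.06 at 24 h and 13.50, 13.51, 13.27, 13.47 and 13.59 at 48 h, with no overlap. Its log2 change was 0.49 ± 0.0609 (SE, adjusted p = 4.87e-07), and it was 0.73 and 0.69 at the doses. Acat2, the thiolase at the head of the pathway, rose by 0.55 ± 0.0696, and Lss, lanosterol synthase, and Cyp51, which demethylates lanosterol, rose by 0.62 and 0.52. The member that fell was Tm7sf2, a sterol reductase (-0.50).

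Fatty acid and triglyceride synthesis moved the same way, with 14 of 25 tested members higher and 1 lower (median 0.30), 7 higher with the covariate and 11 higher here and at both doses. The replicate 4 median was 0.059, against 0.40 in the other arrays. Fads1, a desaturase of polyunsaturated fatty acids, rose by 1.11 ± 0.13. Replicate 4 (11.39) fell just short of the highest 24 h array (11.41). Fasn, fatty acid synthase, which was named after its values were seen, read 12.16, 11.63, 11.48, 11.77 and 11.49 at 24 h and 13.02, 12.60, 12.64, 12.19 and 12.65 at 48 h, a rise of 0.92 ± 0.119. Both also rose at the doses, Fads1 by 1.87 and 1.85 and Fasn by 1.08 and 1.04. The fall was in Insig2, a retention factor that holds back the sterol-regulated transcription factors: it dropped by 0.72 ± 0.0974 and was not called at either dose. It too was added to the named genes after its values were seen.

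Of 34 tested targets of PPAR alpha, the nuclear receptor of fatty acid oxidation, 17 rose and 4 fell in vehicle (median 0.17). With the covariate 8 rose and 1 fell, and 10 rose here and at both doses. The replicate 4 median was 0.021, against 0.21 in the other arrays, and the list median with the covariate was 0.058. Vnn1, a pantetheinase, read 12.28 to 12.60 at 24 h and 13.27, 13.20, 13.27, 13.19 and 13.30 at 48 h, with the 48 h arrays tightly together. Its log2 change was 0.77 ± 0.0538 (SE, adjusted p = 2.03e-12). Cyp4a1, the omega-hydroxylase of fatty acids, went from 12.69 to 13.13 up to 13.53 to 13.94 (0.84 ± 0.0811). Phthalate esters are known activators of this receptor. Cyp4a1 had mean levels of 15.54 and 15.59 at 24 h under 250 and 1000 µM, against 12.86 in vehicle. Its further change was 0.40 and 0.25, less than in vehicle by 0.44 (adjusted p = 0.0159) and 0.59 (adjusted p = 0.00556).

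Plasma protein genes fell in part, and albumin did not pass the test. Alb read 15.73, 15.89, 16.07, 15.81 and 16.50 at 24 h and 15.96, 15.75, 15.84, 16.06 and 16.08 at 48 h, and the arrays overlapped throughout (log2 change -0.06 ± 0.119, adjusted p = 0.743). Among 18 albumin, transport and serpin genes 5 fell and 1 rose, and with the covariate 4 were called, all falls. Apoa2, an apolipoprotein of HDL, read 14.90 to 15.04 and then 14.11, 13.70, 13.82, 13.82 and 13.80, 2.19-fold lower (-1.13 ± 0.0643, SE). In coagulation and fibrinolysis 8 of 18 fell and 1 rose (4 and 1 with the covariate), with 6 falls shared with both doses and 3 falls left with medians set equal. Plg, plasminogen, changed by -0.48 ± 0.0682 and Serpinc1, antithrombin, by -0.39 ± 0.0529.

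In complement 7 of 18 fell and 3 rose (5 and 1 with the covariate). C9 and C8g, parts of the membrane attack complex, fell by 1.04 ± 0.103 and 0.65 ± 0.071. In the acute phase list 6 of 19 fell and 3 rose (6 and 1 with the covariate). Fgl1, a liver-secreted fibrinogen-like protein, fell by 0.55 ± 0.0557 with levels of 14.93 to 15.31 against 14.50 to 14.71. The plasma protein genes named as falling were all called in the same direction at both doses and with the covariate.

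Nitrogen metabolism and the liver's transcription factors leaned downward. In the urea cycle and amino acid list 9 of 27 fell and 1 rose, with 8 falls under the covariate and 5 with medians set equal. Cth, which makes cysteine from cystathionine, fell by 0.68 ± 0.0691, and Tat, the glucocorticoid-induced tyrosine aminotransferase, by 0.44 ± 0.0689. Of 17 glucocorticoid-induced genes 7 fell (3 with medians set equal) and 2 rose, with 4 falls and 1 rise under the covariate, Lcn2, the iron-siderophore binding lipocalin, among them (-0.49 ± 0.0774). Of 16 hepatocyte transcription factors 6 fell (2 with medians set equal) and 1 rose, and with the covariate 2 were called, both falls. Cebpa read 12.32 to 12.61 at 24 h and 11.79 to 12.06 at 48 h (-0.53 ± 0.0711), and Cebpb 13.47 to 13.76 and then 12.77 to 13.30 (-0.52 ± 0.0614). Neither pair of groups overlapped. Of 4 other Cebpa probe sets that passed the filter, 1 moved in the opposite direction, and none was called. For Cebpa the change was -0.10 and 0.08 at the doses, neither called, and the difference from vehicle passed at both (adjusted p = 0.00661 and 0.000616). Its mean at 24 h was already lower at 250 and 1000 µM (12.11 and 11.98) than in vehicle (12.45). At 48 h the means were 12.01 and 12.06 at these doses and 11.92 in vehicle.

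Calls in vehicle among genes of glucose handling and glycolysis were all rises. Of 17 gluconeogenic and glucose-handling genes 3 rose and 0 fell (4 and 0 at an unadjusted p under 0.05), a share close to the 16.4% of all tested genes, and 1 rose with the covariate. The 3 were Gys2, liver glycogen synthase (0.54 ± 0.0759), Pc, pyruvate carboxylase (0.74 ± 0.134, adjusted p = 0.112 with the covariate), and Pygl. In the glycolysis and hypoxia list 7 of 22 rose and 0 fell in vehicle (8 and 2 at an unadjusted p under 0.05), 5 with the covariate, and limma called 0 at either dose (1 and 4 at an unadjusted p under 0.05 at 250 and 1000 µM). Pfkp, the platelet form of phosphofructokinase, read 11.86, 12.21, 12.35, 12.11 and 12.13 at 24 h and 12.89, 12.89, 12.96, 12.86 and 12.82 at 48 h. All 48 h arrays, replicate 4 included, lay above all 24 h arrays, and the change was 0.75 ± 0.0708. At 250 and 1000 µM it was 0.05 and 0.14, and the difference from vehicle passed at both (adjusted p = 3.06e-05 and 0.000604). Ndrg1, which rises in low oxygen, had the same pattern, with 0.51 ± 0.0676 in vehicle and -0.15 and 0.07 at the doses. The other Ndrg1 probe set that passed the filter moved in the opposite direction in vehicle and was not called. Ldhb, a lactate dehydrogenase subunit named after its values were seen, rose by 1.18 ± 0.0942 and by 0.71 and 0.81 at the doses, and Stc1, a secreted glycoprotein chosen likewise, by 1.12 ± 0.17.

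Among bile acid genes 6 of 18 rose and 2 fell, and with the covariate 3 were called, all rises. Slc27a5, the bile acid-CoA ligase, rose by 0.58 ± 0.0863 and Abcc3, an efflux pump of the basolateral membrane, by 0.59 ± 0.0972, with replicate 4 of Abcc3 (12.43) well under the other 48 h arrays (12.75 to 12.86). Cyp7a1, whose product sets the rate of bile acid formation, read 9.70 to 10.27 at 24 h and 10.68, 10.48, 10.38, 10.07 and 10.80 at 48 h. The groups overlapped through replicate 4, and the change of 0.49 ± 0.13 (adjusted p = 0.00464) had an adjusted p of 0.374 with the covariate. Conjugation enzymes split, with 2 of 30 higher and 6 lower (2 lower with medians set equal), and with the covariate 1 was called, a fall. The share called, 26.7%, was close to the 28.1% of all tested genes. Sult1e1, oestrogen sulfotransferase, fell by 0.97 ± 0.22 (-0.45 and adjusted p = 0.303 with the covariate) and Tpmt, thiopurine methyltransferase, by 0.51 ± 0.0708.

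Interferon-induced genes fell more often than they rose, in vehicle and at both doses. Of 24 tested members 9 fell and 2 rose (median -0.21), 6 fell with the covariate and 8 fell here and at both doses. Bst2, which tethers budding virus at the cell surface, read 14.38, 14.35, 14.44, 14.38 and 14.32 at 24 h and 13.63, 13.55, 13.65, 13.86 and 13.45 at 48 h, wholly below. Its change was -0.75 ± 0.07 (adjusted p = 2.27e-09), and -0.79 and -0.81 at the doses. Irf7, a transcription factor that amplifies the interferon response, fell by 0.60 ± 0.0868 and by 1.29 and 0.80 at the doses. Isg15, the ubiquitin-like interferon product, named after its values were seen, went from 10.59 to 11.39 down to 10.25 to 10.47 (-0.76 ± 0.136). It fell further at 250 µM (-2.16), by a difference of 1.40 (adjusted p = 2.02e-05).

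The promoters of 3 of the genes that fell hold letter matches to the interferon-stimulated response element, the site read by STAT and IRF proteins. It was searched here as GAAA, any 2 bases and GAAA. The 250 bases before each start site are shown from RefSeq (GRCr8), with matches on either strand in capitals. Matches in Bst2 and Oas1a, an oligoadenylate synthetase, overlap each other. They begin 131 and 125 bases before the start in Bst2, 69 in Irf7, and 41 and 35 in Oas1a.
Bst2 (chr16:18254968-18255217, minus strand): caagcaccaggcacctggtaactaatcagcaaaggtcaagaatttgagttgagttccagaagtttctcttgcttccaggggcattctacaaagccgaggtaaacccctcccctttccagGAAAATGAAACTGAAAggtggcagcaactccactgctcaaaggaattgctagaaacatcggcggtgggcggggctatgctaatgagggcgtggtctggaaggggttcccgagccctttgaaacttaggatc
Irf7 (chr1:205800024-205800273, minus strand): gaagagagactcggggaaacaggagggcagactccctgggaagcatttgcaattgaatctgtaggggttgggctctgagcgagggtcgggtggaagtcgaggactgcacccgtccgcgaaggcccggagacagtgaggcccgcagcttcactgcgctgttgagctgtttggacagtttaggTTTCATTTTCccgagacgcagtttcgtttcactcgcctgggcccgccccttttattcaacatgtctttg
Oas1a (chr12:41330216-41330465, plus strand): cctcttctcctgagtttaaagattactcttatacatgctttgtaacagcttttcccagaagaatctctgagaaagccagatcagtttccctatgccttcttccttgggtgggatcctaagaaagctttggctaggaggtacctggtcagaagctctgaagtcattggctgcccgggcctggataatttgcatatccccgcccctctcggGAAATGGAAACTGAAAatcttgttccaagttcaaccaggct
The motif was in 3.41% of the 33469 windows. In the interferon list it was in 4 of 6 genes that fell and had a window, and in 6 of the 13 others. Oas1a changed by -0.74 in vehicle. These matches too describe letters only, and binding was not measured.

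Inflammatory genes went both ways: of 22 tested NF-kB targets, chemokines and cytokines, 7 rose and 8 fell (2 and 3 with the covariate). Cxcl9, a chemokine induced by interferon gamma, read 11.93 to 12.15 and then 10.70, 10.96, 11.09, 11.52 and 10.96, with replicate 4 highest. It changed by -0.98 ± 0.106 in vehicle and by 0.30 and -0.03 at the doses, and the difference passed at both (adjusted p = 1.07e-06 and 0.000417). Cxcl1, a neutrophil chemokine named after its values were seen, fell by 1.39 ± 0.184 and by 1.21 and 1.64 at the doses. Of the members that rose, Nfkb2 and Relb, subunits of the non-canonical NF-kB pathway, gave 0.77 and 0.56, neither called with the covariate. Il1r2, the decoy receptor for interleukin-1, read 10.56 to 11.39 and then 10.91 to 11.14 in vehicle (0.19 ± 0.268, adjusted p = 0.639). Over the same day its mean went from 10.12 to 6.95 at 250 µM and from 10.27 to 7.76 at 1000 µM. Both 48 h means lay under the low-signal limit, and with arrays under it counted at the limit the level was at least 4.46-fold and 4.8-fold lower. The difference from the vehicle change passed at both doses (adjusted p = 6.25e-07 and 7.22e-05), with no measured size.

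Genes of the cytoskeleton, matrix and junctions rose more often than they fell. In the actin, intermediate filament and tubulin list 10 of 30 rose and 2 fell, but 2 rose with the covariate. Vcl, vinculin of focal adhesions, went from 11.99 to 12.13 up to 12.98, 12.83, 12.89, 12.35 and 12.46 (0.66 ± 0.114, adjusted p = 0.0691 with the covariate). Of 2 other Vcl probe sets that passed the filter, 1 moved in the opposite direction, and neither was called. Flna, filamin A, named after its values were seen, rose by 1.01 ± 0.179, with replicate 4 level with the highest 24 h array and an adjusted p of 0.0638 with the covariate. In the matrix, integrin and TGF-beta list 11 of 32 rose and 0 fell (12 and 0 at an unadjusted p under 0.05), and with the covariate 4 rose and 1 fell. Itgb5, an integrin chain, rose by 0.61 ± 0.0741. Of 2 other probe sets of the same gene, 1 was called in the same direction and 1 in the opposite direction. Ccn2, a matricellular protein induced by TGF-beta, gave 0.07 ± 0.0963 (adjusted p = 0.624). Of 24 junction genes 10 rose and 1 fell (3 and 1 with the covariate), and the median was 0.053 in replicate 4 against 0.18 in the other 48 h arrays. Dsp, desmoplakin, rose by 0.42 ± 0.0686, and the gene that fell was Gjb1, the main hepatocyte connexin, from 13.87 to 14.14 down to 13.52 to 13.66 (-0.41 ± 0.062). Of 13 S100 and annexin genes 3 rose and 3 fell (3 and 1 with the covariate). S100a6 changed by -0.54 ± 0.0769 in vehicle and by -1.53 and -1.58 at the doses, S100a11 by 0.41 ± 0.0591.

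Stress lists were mixed. In the unfolded protein and integrated stress response 6 of 31 rose and 10 fell (5 with medians set equal; 1 rose and 7 fell with the covariate), Sdf2l1, an endoplasmic reticulum chaperone partner, among the latter (-0.58 ± 0.0794). Of 18 NRF2 targets 5 rose and 6 fell (3 with medians set equal), and with the covariate 4 were called, all falls. Gclm, a subunit of the enzyme that starts glutathione synthesis, changed by -0.41 ± 0.0649 and Gsr, glutathione reductase, by -0.55 ± 0.118, the latter with replicate 4 (13.48) among the 24 h arrays and an adjusted p of 0.516 with the covariate. Among heat shock genes 3 of 13 rose and 1 fell (30.8% called, close to the 28.1% of all tested genes), and with the covariate 1 was called, a rise. Cryab, a small heat shock protein, rose by 0.58 ± 0.0848 with replicate 4 highest at 13.83, and did not pass at the doses (-0.02 and 0.07). The member that fell, the co-chaperone Dnaja1, moved by -0.15 ± 0.0477, and its call was lost with the covariate (adjusted p = 0.363), with medians set equal (0.506) and without 24 h replicate 1 (0.0527). The other Dnaja1 probe set that passed the filter moved in the opposite direction and was not called. Of 17 p53 targets 3 rose and 3 fell (1 and 2 with the covariate), Gadd45a by -0.70 ± 0.0835 and Tp53inp1 by -0.76 ± 0.101. The share called was 35.3%, against 28.1% of all tested genes. In the immediate early list 6 of 20 fell and 1 rose, Zfp36 and Ier2 by 0.24 and 0.49, and limma called 0 with the covariate (4 at an unadjusted p under 0.05) and 1 fall with medians set equal, where Zfp36 had an adjusted p of 0.119.

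Of 33 cell cycle genes 6 fell and 1 rose, and with the covariate 1 fell and 1 rose. The share called in vehicle was 21.2%, under the 28.1% of all tested genes. The list median was -0.089, and 0.013 with the covariate. Spc24, a kinetochore protein, fell by 0.63 ± 0.0921 in vehicle and rose by 0.50 and 0.30 at the doses. Tk1, thymidine kinase, fell by 0.38 ± 0.0826 (adjusted p = 0.104 with the covariate). Of 2 other Tk1 probe sets, 1 was called in the same direction and 1 moved in the opposite direction without a call. Of 17 clock genes 2 rose and 2 fell, in all 23.5% of them, under the 28.1% of all tested genes. Nr1d2, a clock repressor, rose by 0.48 ± 0.102 with replicate 4 (11.03) inside the 24 h range of 10.88 to 11.14, and Tef, a clock-controlled factor, by 0.46 ± 0.119. The other Tef probe set that passed the filter moved in the opposite direction and was not called. With the covariate limma called 0 of the clock genes (2 at an unadjusted p under 0.05). Of 18 metal-handling genes 4 rose and 2 fell (33.3% called, against 28.1% of all tested genes), with 1 and 1 under the covariate. Slc40a1, the iron exporter ferroportin, rose by 0.49 ± 0.0653. Slc30a1, a zinc exporter, changed by -1.01 ± 0.184, with replicate 4 at 10.57 inside the 24 h range and an adjusted p of 0.178 with the covariate.

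Housekeeping complexes fell by small steps that depended on scaling. Of 55 oxidative phosphorylation subunits 23 fell and 0 rose (30 and 0 at an unadjusted p under 0.05; median -0.14), but 3 fell once array medians were set equal, 11 fell with the covariate and 0 fell here and at both doses. Ndufa5 and Uqcrfs1, subunits of complexes I and III, changed by -0.78 ± 0.126 and -0.28 ± 0.051, the second with an adjusted p of 0.0731 with medians set equal. Of 41 ribosomal proteins 12 fell and 0 rose (20 and 0 at an unadjusted p under 0.05), and with medians set equal limma called 0 (3 lower at an unadjusted p under 0.05). With the covariate 4 were called, all falls. Rpl14 and Rpl21 changed by -0.22 ± 0.048 and -0.30 ± 0.0684 (adjusted p = 0.151 and 0.0531 with medians set equal). Of 33 proteasome subunits 13 fell and 4 rose, which became 1 and 4 with medians set equal and 2 and 1 with the covariate. Psma1, a core subunit, changed by -0.27 ± 0.0462 and Psmd2, of the regulatory particle, by 0.37 ± 0.0598. Setting medians equal moved the median of all genes from 0.016 to 0.083. Of 27 lysosome and autophagy genes 9 rose and 2 fell (2 and 1 with the covariate). Ulk1, an autophagy kinase, rose by 0.69 ± 0.111, and Ctss, a cathepsin of antigen-presenting cells, fell by 1.02 ± 0.136.

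Markers of other liver cells were measured beside these groups. Of 10 tested Kupffer cell and leukocyte markers 4 fell and 0 rose (8 and 0 at an unadjusted p under 0.05; median -0.58), and 2 fell with the covariate or with medians set equal. The summed signal of the 17 measured was 26012 to 32982 at 24 h and 22383 to 25361 at 48 h, and 7 of them, Ptprc, Cd163 and Adgre1 among them, were under the low-signal limit. Cd14, also made by hepatocytes, held a large part of that sum, with a mean level of 13.85 at 24 h against a median of 9.18 for the markers measured. Cd14 changed by -0.31 ± 0.0592 (adjusted p = 0.0551 with medians set equal). Of 5 endothelial markers 3 fell (1 with the covariate), with sums of 3704 to 5333 and 2617 to 3851 over the 14 measured, and Pecam1, Stab2 and Vwf under the limit. Fcgr2b, an Fc receptor of both cell types, read 9.98, 10.42, 10.53, 10.41 and 10.64 at 24 h and 8.97, 8.87, 8.89, 9.62 and 9.33 at 48 h (-1.26 ± 0.126), and fell at both doses. Lyve1, of sinusoidal endothelium, was at least 1.34-fold lower (adjusted p = 0.0836 with the covariate). Of 8 stellate cell markers 0 were called, also at an unadjusted p under 0.05, with sums of 4659 to 7474 and 5174 to 6094. Of 6 cholangiocyte markers 2 rose, also with the covariate, Epcam (0.31 ± 0.0511) and Ggt1, gamma-glutamyltransferase (0.70 ± 0.134), with sums of 13867 to 14626 and 16603 to 19496, while Krt7, Krt19, Cftr and Spp1 were under the limit. Epcam held most of the 24 h sum, with a mean level of 13.37 against a median of 8.48 for the markers measured. The macrophage gene C1qc, described above, is itself among the falls counted in the first of these lists, and Fabp4 is not a member. The part of such cells in the changes above was not tested.

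**Figure D4:**
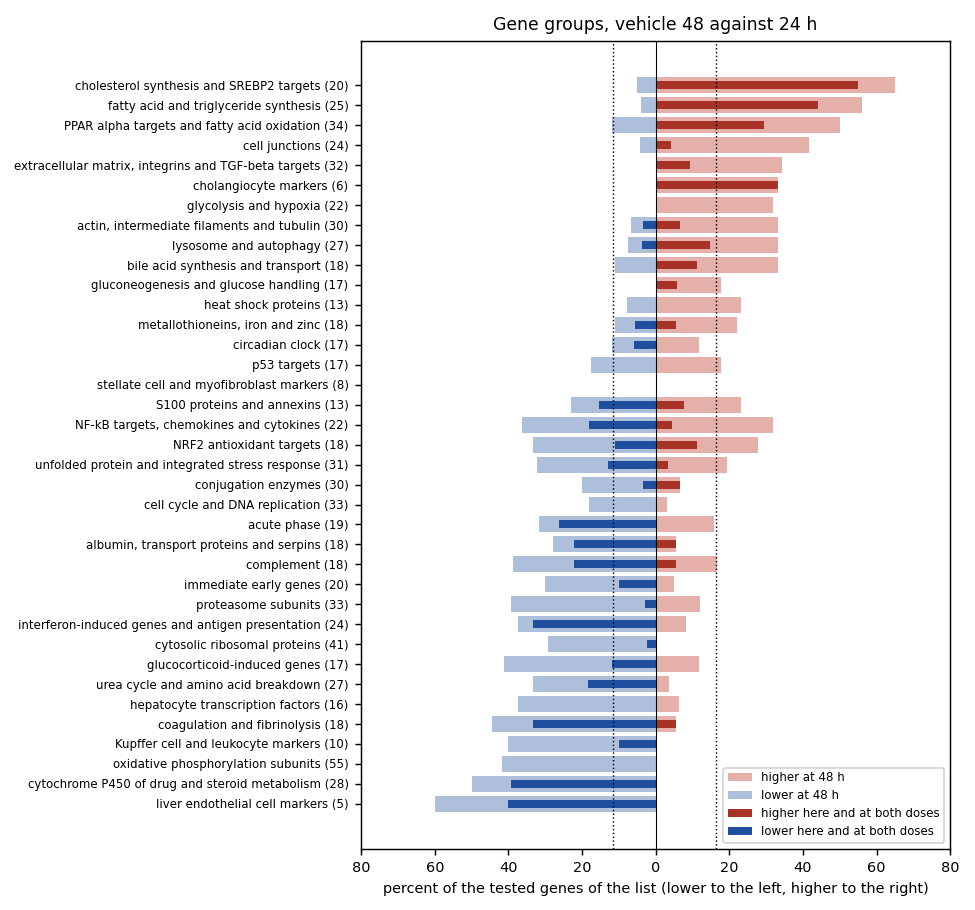
Share of the tested genes in each list (number in brackets) that was higher (right) or lower (left) at 48 h in vehicle, pale bars. Dark bars show the share also called in the same direction at both doses. Dotted lines mark the pale-bar shares over all tested genes, 16.4% and 11.7%. For the dark bars, 320 and 287 of all 10528 tested genes were called. Sterol and fatty acid synthesis have long dark bars on the right and P450 enzymes and endothelial markers on the left, while oxidative phosphorylation and glycolysis have none.

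The same day was compared with that in exposed cultures. From 24 to 48 h, 1408 genes were called at 250 µM (13.4%; 51.3% of them higher at 48 h, and 69% of 770 with medians set equal) and 1897 at 1000 µM (18%). Of all tested genes, 6.86% were higher and 6.52% lower at 250 µM, and 9.91% and 8.11% at 1000 µM. Of the 2963 genes called in vehicle, 669 were called in the same direction at 250 µM, 1243 at 1000 µM and 607 (20.5%) at both. As shares of the exposed lists, 47.5% of the calls at 250 µM and 65.5% of those at 1000 µM were called in the same direction in vehicle. Genes called in opposite directions numbered 44 and 9. The change itself differed between vehicle and 250 µM for 880 genes (8.36%) and between vehicle and 1000 µM for 102 (0.969%). The difference was above 0 for 4.52% of tested genes and below 0 for 3.84% at 250 µM, and for 0.446% and 0.522% at 1000 µM. With the actin covariate these counts were 248 and 74, and in replicate 4 alone 58 and 38. Without 48 h replicate 4 they were 1789 and 322. The difference from 1000 µM was also moved by over 1.5 times without 24 h vehicle replicate 1 (203), 24 h vehicle replicate 4 (63), 48 h vehicle replicate 3 (64), 24 h replicate 3 at 1000 µM (65) and 48 h replicates 3 or 5 at 1000 µM (64 and 65). With medians set equal the differences were 150 and 16, the latter with 62.5% above 0 against 46.1%.

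Cyp3a2 had the largest of these differences among the named P450 genes. Its change of -2.11 in vehicle compares with -0.65 and -0.45 at 250 and 1000 µM, differences of -1.45 ± 0.122 and -1.66 ± 0.122 (SE, adjusted p = 1.44e-09 and 9.04e-11). Its level at 24 h was 12.60 in vehicle, 12.97 at 250 µM and 12.68 at 1000 µM, and at 48 h it was 10.50, 12.32 and 12.23. Vehicle and exposed cultures were further apart at 48 h than at 24 h. Cyp2c13, by contrast, fell by 1.83 and 1.76 at the doses, within 0.04 of the vehicle change. In replicate 4 alone Cyp3a2 and Cyp2c13 changed by -2.27 and -1.81, though both were picked among genes whose groups did not overlap.

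**Figure D5:**
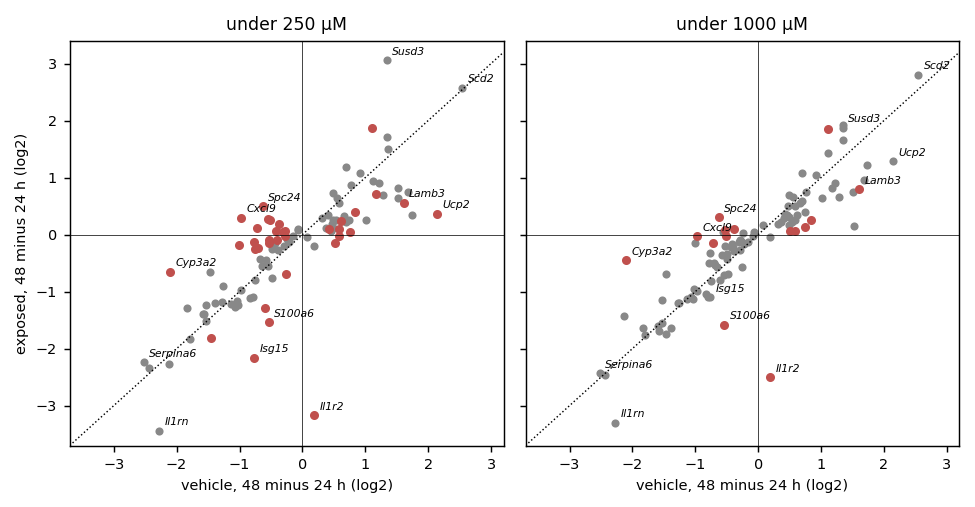
Log2 change from 24 to 48 h in vehicle (horizontal axis) and in exposed cultures (vertical axis; 250 µM left, 1000 µM right) for the 103 named genes, red where the difference between the changes had an adjusted p under 0.05; the dotted line marks equal change. Serpina6 and Scd2 lie near the line, Cyp3a2 lies above it, and Il1r2, whose exposed 48 h means are under the low-signal limit, lies below it at both doses.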

How the data were processed

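Each array has 1 column of intensity values, which the authors deposited per probe set without log transformation. The submitters' processing notes name MAS5 and give neither a version nor settings. After trimming 2% at either end, the mean intensity was 1501 on all arrays, so the authors' values carry a common scaling. The unit of analysis was log2(intensity + 1), computed from the deposited values. Array medians spanned 0.342 on that scale, under the bound of 0.5 set for centring, so none was applied.

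Of 31099 probe sets, 57 controls and the 40% of lowest mean were left out. Of the 18625 that passed, 14112 had 1 gene symbol in the platform table, 340 had several and 4173 had none. For each gene the probe set of highest mean over all 30 arrays was kept (10528 genes). Of the 20832 probe sets with 1 symbol, 20764 matched RefSeq by gene identifier. limma 3.58.1 (R 4.3.3) fitted 1 mean per group over all 30 arrays with a mean-variance trend, and the method was tested on simulated data. Benjamini-Hochberg adjusted p-values are over all tested genes, and called means under 0.05. Values after ± are standard errors from limma unless marked SD. Exact permutation tests used scipy. A gene's bound is its brighter group's mean over the dimmer group's arrays, each raised to the low-signal limit.

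The named genes are the 12 largest rises and 12 largest falls among called genes whose vehicle groups do not overlap and whose brighter group lies above the low-signal limit, up to 2 called members of smallest p from each of 37 lists, and the fixed genes Alb, Hnf4a, Cyp3a23-3a1, Cyp2c11, Cyp7a1, Cyp4a1, Actb, Ccn2, Il1r2 and Spc24. Actb was read only through its control probe sets. A further 11 were added after their values were seen. The comparison, the lists and the members were chosen with earlier results of these data known. Lists are described by counts beside those over all genes, with no test of their own. Alternatives covered the pseudocount, filter, scaling, probe set choice, array weights, actin covariate, arrays fitted and each array left out.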

Additional observations from a re-analysis of the deposited data

Results flagged for a closer look

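In 14 of 214 groups of 5 arrays, 1 array lay further from its nearest neighbour than Dixon's 95% critical value of 0.71 allows, and chance gives about 1 in 20 groups. Replicate 4 of the 48 h vehicle arrays stood off on the log2 scale for Acta1 (13.76), Abcc3 (12.43), Dnaja1 (13.91) and Nr1d2 (11.03). Replicate 1 of the 24 h vehicle arrays stood off for C9 (13.03), Pc (11.10), Fads1 (11.41), S100a11 (15.32), Slc40a1 (13.95) and Cyp1a2 (13.33). The others were Gstp3 in 48 h replicate 3 (8.07), Serpinc1 in 48 h replicate 1 (14.74), Acat2 in 24 h replicate 4 (12.77) and Rpl21 in 48 h replicate 3 (15.00).

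The change from 24 to 48 h differed between vehicle and 250 µM for 880 genes by the test of the difference itself (limma, adjusted p under 0.05). Among the named genes, the log2 change in vehicle minus that at 250 µM was above 0 for Ucp2 (1.77), Lamb3 (1.05), Pfkp (0.70), Ndrg1 (0.66), Abcc3 (0.48), Cyp4a1 (0.44), Cryab (0.61), Irf7 (0.69), S100a6 (1.00), Itgb5 (0.38), Dsp (0.32), Cyp2c11 (0.42), Il1r2 (3.36), Cyp1a2 (0.36), Isg15 (1.40) and Ldhb (0.47). The values for Ucp2 and Il1r2 are fitted against group means under the low-signal limit of 7.88 and give no measured size, and by its bound the vehicle change of Ucp2 need not exceed that at 250 µM. It was below 0 for Cyp3a2 (-1.45), Cebpb (-0.38), Cebpa (-0.44), Tpmt (-0.76), Gclm (-0.31), Gsr (-0.83), Fads1 (-0.76), Gadd45a (-0.46), Tp53inp1 (-0.50), Cxcl9 (-1.27), Gjb1 (-0.47), Spc24 (-1.13), Tk1 (-0.57), Slc30a1 (-0.83), Ndufa5 (-0.65), Uqcrfs1 (-0.34), Psma1 (-0.25), Cd14 (-0.36) and Insig2 (-0.84). The adjusted p of these named differences lay between 1.44e-09 and 0.0418.

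The change from 24 to 48 h differed between vehicle and 1000 µM for 102 genes by the test of the difference itself (limma, adjusted p under 0.05). Among the named genes, the log2 change in vehicle minus that at 1000 µM was above 0 for Lamb3 (0.81), Pfkp (0.61), Ndrg1 (0.44), Cyp4a1 (0.59), Cryab (0.52), S100a6 (1.05) and Il1r2 (2.70). The value for Il1r2 again has a group mean under the limit. It was below 0 for Cyp3a2 (-1.66), Cebpa (-0.61), Tpmt (-0.49), Fads1 (-0.74), Cxcl9 (-0.94), Spc24 (-0.93), Tk1 (-0.48) and Insig2 (-0.56). The adjusted p of these named differences lay between 9.04e-11 and 0.0479.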

How the results depend on the processing

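The limits are the wells, of which the number of rats is not given, the raised actin ratios at 48 h, and unknown MAS5 settings. Vehicle replicates 1, 2, 3 and 5 at 48 h had ratios of 1.66 to 2.44, above all 24 h vehicle and all exposed arrays. Replicate 4 at 48 h, at 1.04, stands apart from them. Depth is not defined for arrays, and their number and the dim signals limit precision. In the order vehicle, 250 µM, 1000 µM, vehicle minus 250 µM and vehicle minus 1000 µM, 2963, 1408, 1897, 880 and 102 genes were called. Pseudocount 16, no filter on low signals and the mean of probe sets kept each of these within 1.5 times. Centring array medians gave 2161, 770, 873, 150 and 16. Counts that moved elsewhere were, for vehicle, 4638 for each probe set on its own (18625 tested), 749 with the actin covariate, 146 without the 4 arrays of raised ratio, 1902 with only the compared arrays, and 1158, 1542 and 1080 from 48 h arrays 2, 3 and 5 alone. For the difference from 250 µM they were 248 with the covariate (35.5% above 0, against 54.1%), 2118 with array weights and 58 without the 4 arrays. For that from 1000 µM they were 157 after quantile normalization, 295 with array weights, 65 without the mean-variance trend, 38 without the 4 arrays and 36 with only the compared arrays. The cause was not tested.

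Leaving out 1 array at a time gave 2425 to 3690 calls in vehicle, 1132 to 1300 at 250 µM, 1502 to 2093 at 1000 µM, and 609 to 1789 and 63 to 322 for the differences, the highest of the vehicle counts and of both differences without 48 h replicate 4. The 48 minus 24 h difference was 0.394 to 0.743 for the actin ratio, 0.0584 to 0.0948 for Gapdh, -0.994 to -0.455 for hexokinase and -0.114 to -0.0287 for the array median; without 48 h replicate 4 the first 2 passed the threshold. Of the 103 named genes, 83 kept their side of the threshold with the covariate and 20 lost their call. Without the 4 arrays 45 kept it, 57 lost it and Nr1d2 changed sign (-0.0050, adjusted p = 0.998). No paired analysis was run. Replicate numbers follow accession order, and the labels do not say whether wells of the same number are paired.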
